A study of Rattus norvegicus with 4 samples.

Results

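Autophagy, mitophagy and lysosome genes were examined in the soleus of rats 10 days after nerve section, with and without dietary genistein. A list of 31 gene symbols was used, and every probe set annotated to exactly 1 of them was taken, which gave 49 probe sets for 28 genes among the 14217 genes named on the array. Of these 28 genes, 13 had 1 probe set and 15 had several. Map1lc3b was annotated on 1 probe set and Gabarapl2 on 2 probe sets that each carried a second symbol as well, and Npc1 had no named probe set, so these 3 genes were not analysed here. All 28 genes lay above the floor of 78.9 signal units on all 4 arrays. The floor is the 40th percentile of all probe sets other than array controls, and lower signals were raised to it.

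Autophagy encloses cytoplasm in a double membrane and delivers it to the lysosome. The ULK1 kinase complex and the Beclin 1 lipid kinase complex start the membrane, WIPI proteins bind its lipid, and ATG enzymes attach LC3 and GABARAP proteins to it. Cargo receptors such as p62 and BNIP3 link their load, mitochondria included, to LC3, and lysosomal proteases and glycosidases then degrade it. In skeletal muscle the pathway is known both for clearing damaged mitochondria and for the loss of protein in wasting fibres, and its genes are known targets of the transcription factors TFEB and FoxO3.

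The 4 groups were male Wistar rats on a diet with genistein (0.5 g per kg, given for 24 days), denervated or sham leg, and male Wistar rats on a control diet, denervated or sham leg. The animals were 10 weeks old at the start, and the labels of all 4 samples give an age of 14 weeks. The left sciatic nerve was cut on day 14, so the sham muscle is the right soleus of the same operated rats and no unoperated animals were included. The labels state for the control diet only that corn oil took the place of soybean oil. RNA of 8 rats was pooled per group and hybridised to 1 array, so no value has a replicate or an error, no test was run, and every statement is about these 4 pools. In whole muscle, fewer cells of a type and less RNA per cell cannot be told apart.

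A treatment field in the labels contradicted the title of 2 samples, and groups were taken from the titles. Chrna1, the acetylcholine receptor alpha subunit that muscle makes after nerve loss, had signals of 16186 units in denervated and 1589 units in sham muscle on genistein, against 20550 and 1860 units on the control diet. Chrng was above the floor only in the 2 denervated pools, and the denervated over sham log2 ratios of Myog, Trim63 and Fbxo32 were 2.09, 1.19 and 0.62 on genistein and 1.82, 1.22 and 0.98 on the control diet. These genes followed the titles. Actin probe sets at the 3′ end read above those at the 5′ end, as they do more in less intact RNA, by factors of 2.76 in denervated and 2.32 in sham muscle on genistein and 3.79 and 2.08 on the control diet. For GAPDH the factors were 1.13 in denervated and 1.2 in sham muscle on genistein and 1.14 and 1.24 on the control diet. The GAPDH factor was thus slightly lower in denervated muscle, unlike that of actin. Across 18 hybridisation control probe sets there was a median denervated over sham log2 ratio of -0.54 for genistein and -0.39 for the control diet. The part of these measures in the results below was not tested.

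Denervation left the autophagy and lysosome genes without a common direction, and a few members carried nearly all of the large differences. Ctsl, the lysosomal protease cathepsin L, was at least 2-fold higher in denervated muscle on both diets, and Wipi1, a lipid-binding protein of the forming autophagosome, was at least 2-fold lower on both. Bnip3, a mitochondrial receptor for mitophagy, was 2.23-fold lower on genistein and 1.95-fold lower on the control diet. Becn1 and Atg12 were at least 1.5-fold but under 2-fold higher on both diets, though with the mean of its probe sets Atg12 was not (log2 ratios of 0.50 and 0.54).

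On genistein, 1 of 28 members was at least 2-fold higher after denervation and 2 were at least 2-fold lower, beside 4.97% and 6.6% of the 10822 measured genes. On the control diet 1 member was higher and 1 lower, beside 5.05% and 7.65% of 10763 genes. At 1.5-fold the counts were 4 higher and 3 lower on genistein (background 14.5% and 15.4%) and 6 higher and 2 lower on the control diet (14.1% and 17.8%). The 6 members that were 1.5-fold higher on the control diet are 21.4% of the 28, above the 14.1% of all genes, while the other shares of members were near the background or below it. Of the 6, Ulk1 lay at the cut-off, with a fold of 1.5. The share depended on the processing. It was 25% beside 17.1% of all genes under median scaling and 17.9% beside 13.1% under quantile normalization. With the mean of probe sets it was 14.3% beside 11.8%. The members' median log2 ratio was 0.06 on genistein and 0.08 on the control diet, against 0.02 and 0.00 for all measured genes.

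As a guide to measurement scatter, log2 ratios of different probe sets of 1 gene varied about their mean with an SD of 0.37 for denervation on genistein and 0.36 on the control diet. Of the 28 members, 17 on genistein (60.7%) and 14 on the control diet (50%) lay within that SD of 0, beside 51% and 48.1% of all measured genes. The guide leaves out the scatter between pools and animals. The denervation ratios of the 2 diets come from 4 different arrays, and across the 28 members they had a Pearson correlation of 0.906 (0.853 over 10409 measured genes), given as a description of genes that share the same arrays. Of the members, 13 (46.4%) were higher and 8 (28.6%) lower on both diets and 7 (25%) had opposite signs, beside 41%, 38.2% and 20.7% of all measured genes.

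**Figure D1:**
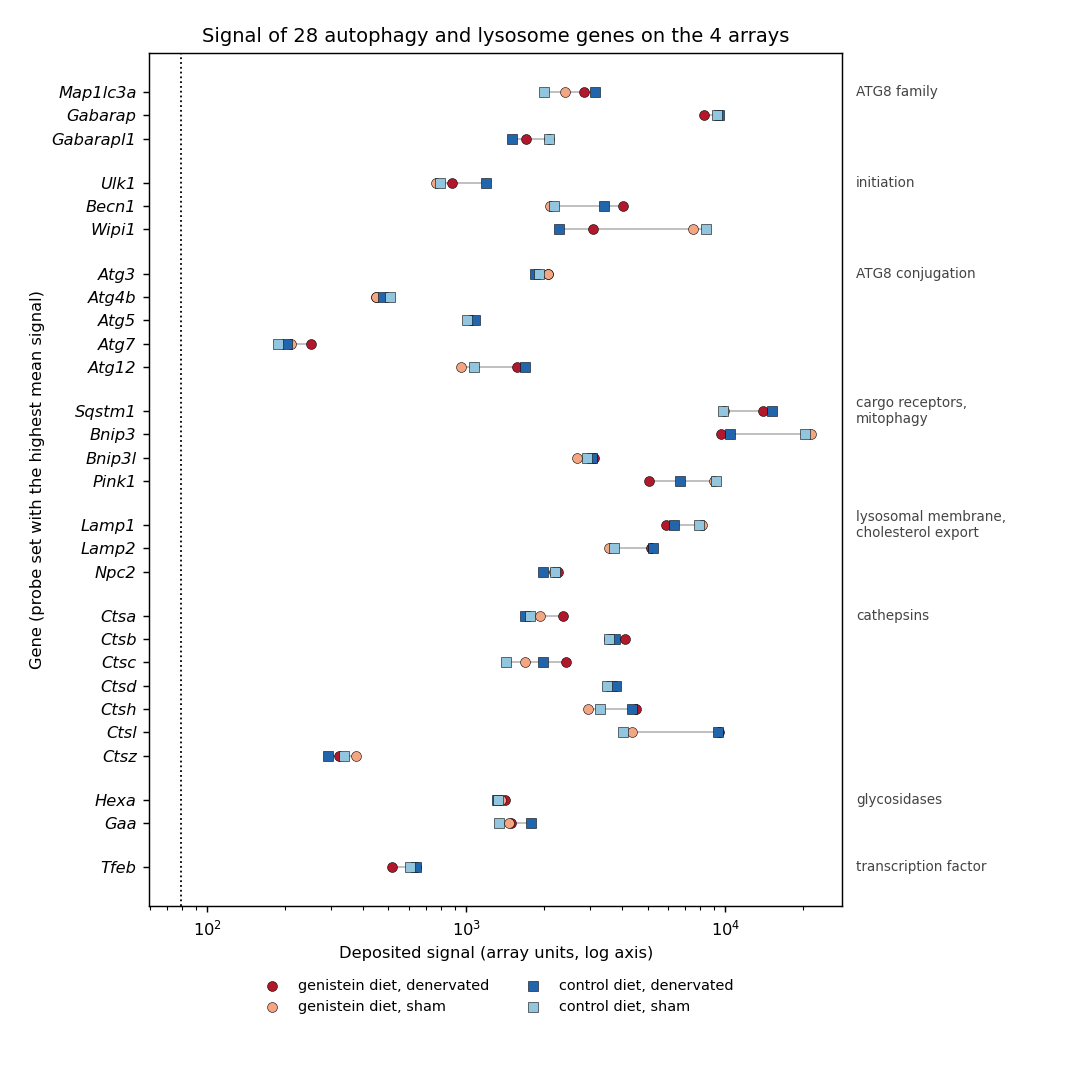
Deposited signal of the 28 genes on the 4 arrays (log axis, array units), 1 point per pool, grouped by role, with the floor of 78.9 units dotted. The points of Wipi1, Bnip3 and Ctsl split into a sham pair and a denervated pair, whereas those of Atg3, Atg5, Ctsd and Hexa nearly coincide.

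The initiation genes went different ways. Wipi1 had a signal of 3076 units in denervated and 7514 units in sham muscle on genistein, and 2284 and 8402 units on the control diet. Both denervated pools were therefore below both sham pools, by 2.44-fold on genistein and 3.68-fold on the control diet. A second, dimmer Wipi1 probe set also read lower but by less, with log2 ratios of -0.49 and -0.56 on genistein and the control diet, where the brighter gave -1.29 and -1.88.

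Becn1, the Beclin 1 subunit of the lipid kinase complex, read 4029 units in denervated and 2110 units in sham muscle on genistein, and 3397 and 2180 units on the control diet. Its denervated pools were above its sham pools by 1.91-fold and 1.56-fold on genistein and the control diet. Ulk1, the kinase that starts autophagosome formation, read 876 and 761 units in denervated and sham muscle on genistein and 1186 and 790 units on the control diet. Its log2 ratio of 0.59 on the control diet stands beside 0.20 on genistein, and its other probe set gave log2 ratios of 0.24 on genistein and 0.31 on the control diet.

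Wipi1 is shown here with its promoter, 250 bases before to 50 after the annotated start from RefSeq, because it had the lowest ratio of all members. Promoters were found for 23 of the 28 members. They were searched on both strands for CACGTG, the E-box core of the element that TFEB is known to bind, for the longer CLEAR element, a palindrome that contains this core, and for GTAAACA, a FoxO core. Matches are in capitals in all sequences below.
Wipi1 promoter, GRCr8 chr10:95079244-95079543, minus strand: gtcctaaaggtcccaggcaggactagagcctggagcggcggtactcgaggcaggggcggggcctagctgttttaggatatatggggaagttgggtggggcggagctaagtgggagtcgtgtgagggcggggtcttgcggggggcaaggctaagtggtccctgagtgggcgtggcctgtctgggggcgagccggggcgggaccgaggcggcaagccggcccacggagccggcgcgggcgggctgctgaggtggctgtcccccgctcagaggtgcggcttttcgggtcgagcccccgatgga
None of the 3 motifs was in this window. GTAAACA and the CLEAR element were in 0 of the 23 member promoters, beside 3.78% and 0.233% of all 33469 promoters in the RefSeq table. CACGTG was in 7 of the 23 (30.4%), beside 6.42% of all promoters and 8.65% of the 13192 promoters of genes named on the array. The members were chosen by function, and TFEB targets are among the genes such a list would hold, so the share is a description of the list.

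Of the 5 genes of the conjugation system that attaches LC3 and GABARAP proteins to the membrane, 4 lay within the scatter SD on both diets and Atg12 was higher. Atg12, the ubiquitin-like protein joined to ATG5, read 1565 units in denervated and 949 units in sham muscle on genistein, and 1687 and 1071 units on the control diet. It was 1.65-fold and 1.57-fold higher in denervated muscle on genistein and the control diet. Under quantile normalization the control diet log2 ratio was 0.57, short of 1.5-fold. A second probe set gave log2 ratios of 0.82 and 0.65 and the remaining one -0.04 and 0.32, beside 0.72 and 0.65 for the brightest.

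Atg5, the partner of ATG12, read 1039 and 1043 units in denervated and sham muscle on genistein and 1077 and 1008 units on the control diet. Atg3, the enzyme that hands LC3 to its lipid, had log2 ratios of -0.01 and -0.05 on genistein and the control diet, and Atg4b, the protease that trims LC3, 0.00 and -0.09. Atg7, the activating enzyme of both conjugation reactions, had ratios of 0.26 and 0.11 on its brightest probe set. Its other probe set above the floor on all arrays gave 1.49 and 0.50, with signals of 260 and 93 units in denervated and sham muscle on genistein and 245 and 174 units on the control diet. For Atg7 the size therefore depended on the probe set.

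The transcripts of the 3 measured ATG8 proteins, which sit on the autophagosome membrane, differed in direction and, for Gabarap, between probe sets. Map1lc3a, which encodes the LC3A form, read 2833 units in denervated and 2396 units in sham muscle on genistein, and 3127 and 1992 units on the control diet. Its log2 ratios were 0.24 and 0.65, the second past 1.5-fold. Gabarapl1 was lower on both of its probe sets, with brightest log2 ratios of -0.30 on genistein and -0.47 on the control diet, the first becoming 0.18 under scaling to the hybridisation controls.

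Gabarap read 8246 and 9336 units in denervated and sham muscle on genistein and 9400.0 and 9236 units on the control diet, log2 ratios of -0.18 and 0.03. A second Gabarap probe set disagreed. It read 152 and 382 units in denervated and sham muscle on genistein and 159 and 393 units on the control diet, log2 ratios of -1.33 and -1.30. The brightest probe set was thus nearly level and the dimmer one more than 2-fold lower in denervated muscle, and the target sequence of each was not analysed here.

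**Figure D2:**
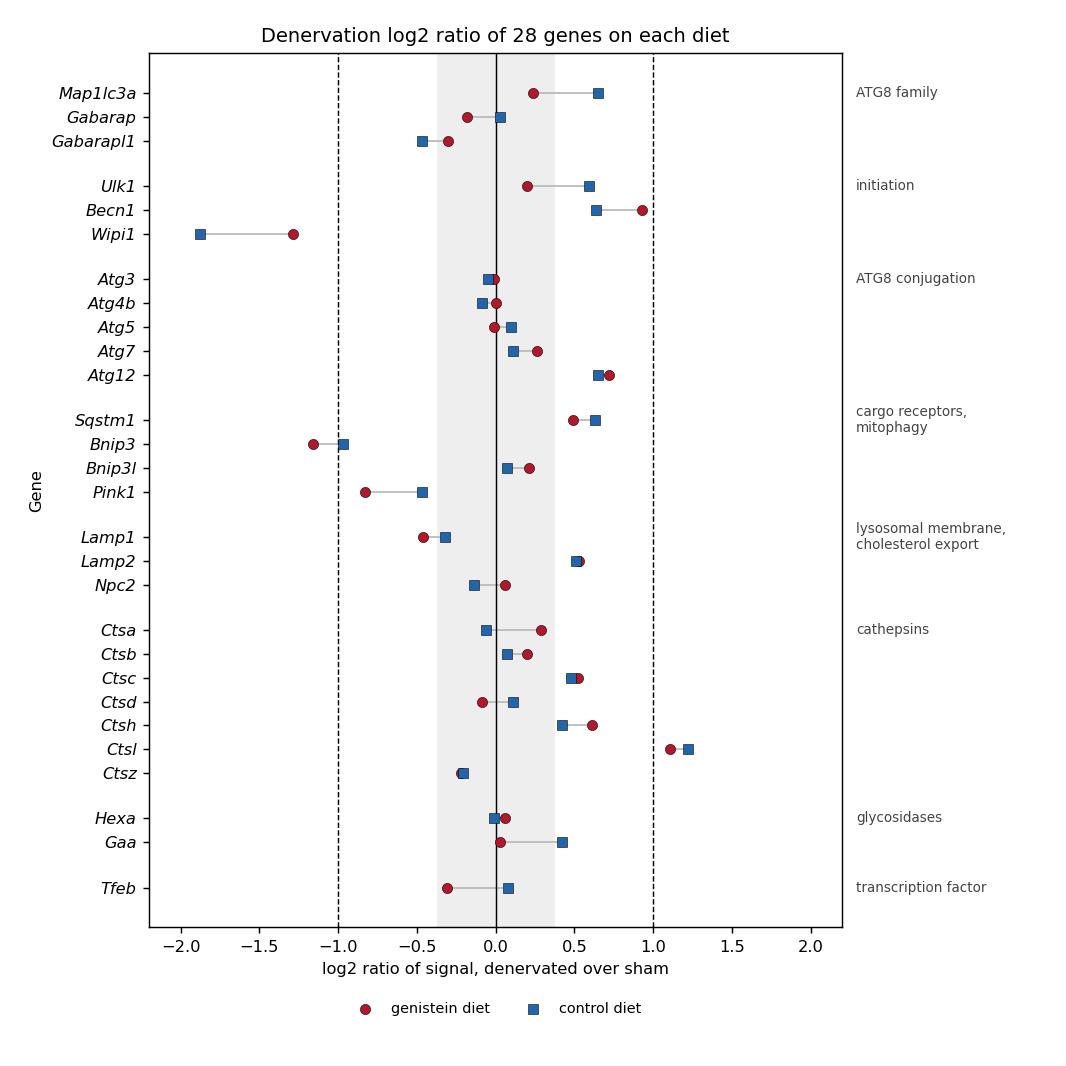
log2 ratio of denervated over sham signal for the 28 genes, circles for genistein and squares for the control diet, with dashed lines at 2-fold and the scatter SD of 0.37 shaded. Ctsl lies beyond 2-fold on the right and Wipi1 on the left for both diets, Bnip3 does so on genistein only (-1.16, against -0.97 on the control diet), and most others lie in or near the shaded band.

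Among the cargo receptor and mitophagy genes, Bnip3 and Pink1 were lower after denervation while Sqstm1 was higher. Bnip3 read 9569.9 units in denervated and 21315 units in sham muscle on genistein, and 10418 and 20356 units on the control diet, so both denervated pools were near one level and both sham pools near another. Its log2 ratios of -1.16 and -0.97 were -0.70 and -0.54 under quantile normalization. Bnip3l, its relative NIX, which clears mitochondria from maturing red cells, had ratios of 0.21 and 0.07 on one probe set and 0.17 and 0.18 on the other.

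Pink1, the kinase that marks depolarised mitochondria, read 5069.7 units in denervated and 9029 units in sham muscle on genistein, and 6656 and 9213 units on the control diet. Its denervated pools were 1.78-fold and 1.38-fold lower on genistein and the control diet. The log2 ratios of -0.83 and -0.47 were -0.65 and -0.19 under quantile normalization and -0.36 and -0.08 under scaling to the hybridisation controls. Sqstm1, the p62 receptor for ubiquitinated cargo, read 13952 and 9902 units in denervated and sham muscle on genistein and 15116 and 9782 units on the control diet. It was 1.41-fold higher on genistein and 1.55-fold higher on the control diet. Its next probe set gave log2 ratios of 0.99 and 0.73, a dim one -0.13 and 0.36, and the fourth was below the floor on all 4 arrays.

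The promoters of Bnip3 and Pink1 held CACGTG, once for Bnip3 (99 bases before the start) and at 2 places for Pink1 (161 and 98 bases before the start). The Bnip3 promoter is given whole, and the Pink1 matches with 10 bases on each side.
Bnip3 promoter, GRCr8 chr1:203154913-203155212, minus strand: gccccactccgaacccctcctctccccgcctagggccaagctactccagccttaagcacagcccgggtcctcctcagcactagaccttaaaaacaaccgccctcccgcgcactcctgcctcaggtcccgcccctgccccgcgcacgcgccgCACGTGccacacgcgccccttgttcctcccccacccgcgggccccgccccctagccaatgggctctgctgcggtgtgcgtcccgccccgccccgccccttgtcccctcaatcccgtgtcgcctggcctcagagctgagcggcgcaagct
Pink1, GRCr8 chr5:155826096-155826121, minus strand: gctacccctcCACGTGggttcaaagt
Pink1, GRCr8 chr5:155826033-155826058, minus strand: gttgcgccccCACGTGctgtgcagga
The denervated over sham log2 ratios beside these sequences were -1.16 and -0.97 for Bnip3 and -0.83 and -0.47 for Pink1. A link between the motif and the ratios was not tested, and other members with the motif are given below.

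**Figure D3:**
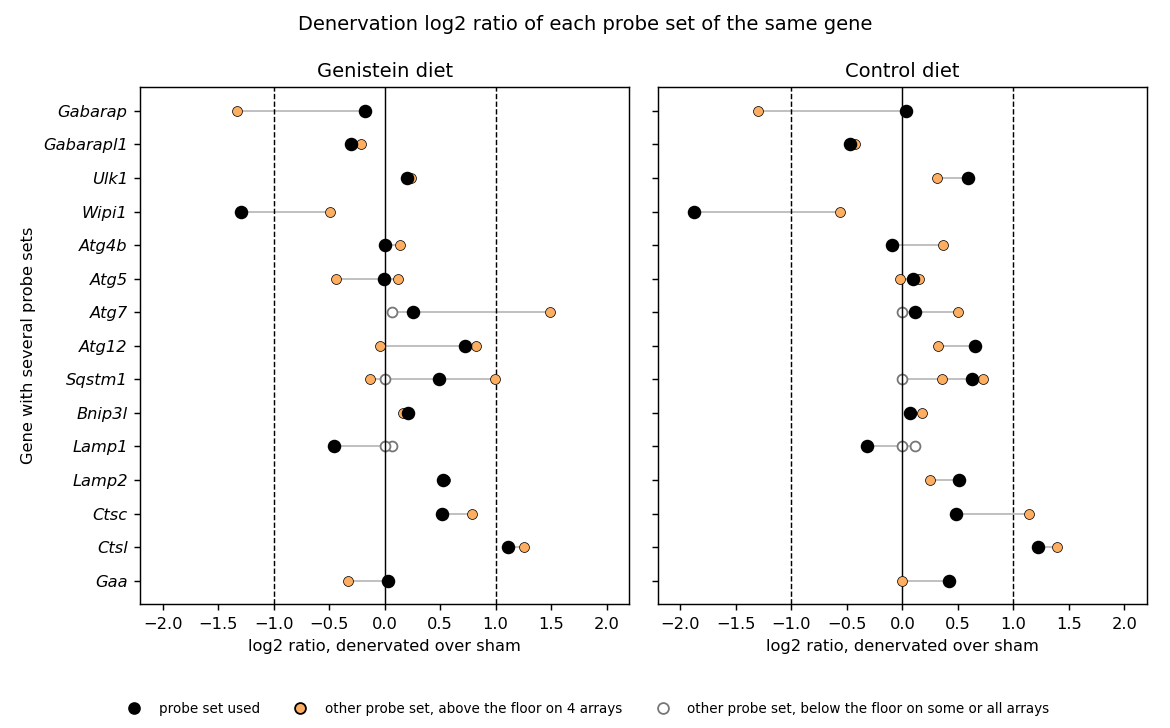
Denervated over sham log2 ratio of every probe set of the 15 genes with several, genistein left and control diet right. Both Ctsl probe sets lie past 2-fold (1.11 to 1.39), whereas those of Gabarap, Wipi1, Atg7 and Sqstm1 spread by more than 1 log2 unit on at least 1 diet.

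The 2 major lysosomal membrane glycoproteins read in opposite directions. Lamp2, whose deficiency is known to cause a vacuolar myopathy in humans, read 5159 units in denervated and 3564 units in sham muscle on genistein, and 5272 and 3701 units on the control diet. Its log2 ratios were 0.53 and 0.51 on this probe set and 0.54 and 0.25 on the other. Lamp1 read 5874 and 8104 units in denervated and sham muscle on genistein and 6330.1 and 7888.5 units on the control diet, log2 ratios of -0.46 and -0.32 that became 0.01 and 0.07 under scaling to the hybridisation controls. Npc2, which hands cholesterol to the lysosomal exporter NPC1, had ratios of 0.06 and -0.14.

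The Lamp1 promoter is shown because it held CACGTG 5 times, and no other of the 33469 promoters held it 5 times or more.
Lamp1 promoter, GRCr8 chr16:83075014-83075313, minus strand: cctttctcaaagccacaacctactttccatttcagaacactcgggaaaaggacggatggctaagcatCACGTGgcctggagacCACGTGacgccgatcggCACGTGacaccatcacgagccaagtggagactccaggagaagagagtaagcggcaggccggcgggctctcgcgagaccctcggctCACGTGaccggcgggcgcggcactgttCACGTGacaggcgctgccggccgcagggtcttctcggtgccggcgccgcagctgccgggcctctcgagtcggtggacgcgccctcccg
The copies begin 183, 167, 150, 65 and 38 bases before the start.

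The cathepsins, the lysosomal proteases, had a median log2 ratio of 0.29 on genistein and 0.11 on the control diet over 7 genes. On each diet 5 of 7 (71.4%) were above 0, beside 51.6% and 49.8% of all measured genes. Ctsl read 9448 units in denervated and 4372 units in sham muscle on genistein, and 9359 and 4021 units on the control diet. It was 2.16-fold and 2.33-fold higher, and its second probe set agreed in size with log2 ratios of 1.26 and 1.39. Under all 7 alternative settings both ratios stayed past 2-fold, between 1.08 and 1.61. The Ctsl promoter, which held none of the 3 motifs, is shown because Ctsl had the highest ratio of all members.
Ctsl promoter, GRCr8 chr17:769854-770153, plus strand: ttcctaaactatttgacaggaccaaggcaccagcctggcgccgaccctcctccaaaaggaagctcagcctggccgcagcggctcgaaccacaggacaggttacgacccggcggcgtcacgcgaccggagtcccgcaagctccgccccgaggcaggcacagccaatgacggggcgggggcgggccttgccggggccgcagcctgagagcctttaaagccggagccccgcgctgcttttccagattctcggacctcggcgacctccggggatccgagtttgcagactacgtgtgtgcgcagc

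Other cathepsins were higher by less. Ctsh, an aminopeptidase of the group, read 4497 units in denervated and 2939 units in sham muscle on genistein, and 4373 and 3270 units on the control diet, folds of 1.53 and 1.34. Ctsc, which activates serine proteases of immune granules, read 2413 and 1680 units in denervated and sham muscle on genistein and 1969 and 1416 units on the control diet. Its log2 ratios of 0.52 and 0.48 were 0.79 and 1.14 on its other probe set.

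Of the other 4, Ctsd, an aspartyl protease, read 3508 and 3741 units in denervated and sham muscle on genistein and 3775 and 3490.2 units on the control diet. Ctsb, a cysteine protease, had log2 ratios of 0.20 and 0.07 on genistein and the control diet, and Ctsz, a carboxypeptidase, -0.22 and -0.21. Ctsa, which protects lysosomal galactosidase and neuraminidase, read 2358 and 1923 units in denervated and sham muscle on genistein and 1683 and 1757 units on the control diet, so that its genistein denervated pool stood highest.

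Among the glycosidases, Gaa, the acid alpha-glucosidase that degrades lysosomal glycogen and is deficient in Pompe disease, read 1492 and 1464 units in denervated and sham muscle on genistein and 1781 and 1335 units on the control diet. Its log2 ratios were 0.03 on genistein and 0.42 on the control diet, the second beyond the scatter SD, and -0.33 and 0.00 on a dimmer probe set. Hexa, the alpha subunit of beta-hexosaminidase, had ratios of 0.06 and -0.01.

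Tfeb, the transcription factor known as a master regulator of lysosomal genes, read 516 units in denervated and 639.5 units in sham muscle on genistein, and 636 and 603 units on the control diet. These are log2 ratios of -0.31 and 0.08, both within the scatter SD. The CACGTG matches in the promoters of Ctsd, Gaa, Atg3 and Atg5 are given with 10 bases on each side, so that all 7 members with a match can be compared, and the denervation log2 ratios of these 4 genes lay between -0.09 and 0.42.
Ctsd, GRCr8 chr1:206968963-206968988, minus strand: tttcttccccCACGTGactcgcatcc
Ctsd, GRCr8 chr1:206968816-206968841, minus strand: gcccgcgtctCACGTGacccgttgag
Gaa, GRCr8 chr10:105028278-105028303, plus strand: gcccacaaacCACGTGacccacgctg
Atg3, GRCr8 chr11:69159304-69159329, minus strand: ctacttctgtCACGTGtcccgggaga
Atg3, GRCr8 chr11:69159281-69159306, minus strand: agattcgagtCACGTGaggcctagga
Atg5, GRCr8 chr20:49380806-49380831, plus strand: gggcgctggcCACGTGggcgggtgac
Ctsd and Atg3 each held 2 copies. Across the 7 members with the core, log2 ratios ran from -1.16 (Bnip3) to 0.03 (Gaa) on genistein and from -0.97 to 0.42, for the same genes, on the control diet.

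Other genes of the pathway were taken from lists and are described beside the members. Among all measured genes, 4.97% on genistein and 5.05% on the control diet were at least 2-fold higher, and 6.6% and 7.65% at least 2-fold lower. Of 29 further autophagy genes, 1 on each diet was at least 2-fold higher in denervated muscle and 0 were at least 2-fold lower. That gene was Vmp1, an endoplasmic reticulum protein that autophagosomes need to form. It read 3296 units in denervated and 863 units in sham muscle on genistein, and 2433 and 845 units on the control diet, log2 ratios of 1.93 and 1.53. The list medians were 0.16 on genistein and 0.29 on the control diet. Above 0 were 20 (69%) and 24 (82.8%) of 29, beside 51.6% and 49.8% of all measured genes.

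Of 12 further cargo and mitophagy genes, 2 were at least 2-fold lower on genistein, 1 on the control diet and 0 higher. Of all measured genes, 6.6% and 7.65% were at least 2-fold lower. Retreg1, the endoplasmic reticulum receptor FAM134B, read 9830.2 and 22185 units in denervated and sham muscle on genistein and 9197 and 20426 units on the control diet, log2 ratios of -1.17 and -1.15. The list was split, with 6 of 12 (50%) above 0 on genistein and 7 (58.3%) on the control diet, beside 51.6% and 49.8% of all genes. Its medians were -0.04 and 0.13. The others past 1.5-fold on either diet are named after their values were seen. Phb2, an inner membrane mitophagy receptor, had ratios of -1.01 and -0.86 on genistein and the control diet, the channel Vdac1 -0.97 and -0.74, and the fusion protein Mfn2 -0.84 and -0.80. In the other direction, the mitochondrial outer membrane protein gene Fkbp8 had ratios of 0.85 and 0.19 and Calcoco1, an endoplasmic reticulum autophagy receptor, 0.56 and 0.98.

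Lysosomal genes outside the members were likewise mixed. Of 19 further membrane and cofactor genes, 2 on genistein and 1 on the control diet were at least 2-fold higher and 0 lower. Of all measured genes, 4.97% and 5.05% were at least 2-fold higher. Sort1, the sortilin receptor that carries proteins to lysosomes, read 1736 and 452 units in denervated and sham muscle on genistein and 1808 and 413 units on the control diet, log2 ratios of 1.94 and 2.13. The other, named after its value was seen, was the sialic acid exporter Slc17a5 (1.18 on genistein and 0.83 on the control diet). The 16 proton pump genes, which acidify the lysosome, ranged from -0.56 to 0.66 on genistein and from -0.53 to 0.64 on the control diet, with 0 past 2-fold.

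Among all measured genes, 4.97% on genistein and 5.05% on the control diet were at least 2-fold higher in denervated muscle. Of 31 measured hydrolases outside the members, 3 on genistein and 0 on the control diet were at least 2-fold higher in denervated muscle. The 3, named after their values were seen, were Ctso (1.08 on genistein and 0.89 on the control diet), Manba (1.24 and 0.89) and Galc (1.22 and 0.73), so each was past 1.5-fold on both diets. Galc read near the floor in sham muscle, with 87.4 units on genistein and 96.7 units on the control diet. At 1.5-fold, 7 of the 31 were higher on each diet (22.6%, beside 14.5% and 14.1% of all measured genes). On each diet 1 was at least 1.5-fold lower, beside 15.4% and 17.8%. The hydrolase medians were 0.08 and -0.15, with 58.1% and 38.7% above 0, beside 51.6% and 49.8% of all measured genes. The regulator list had 1 of 16 measured genes at least 2-fold higher on each diet and 0 lower. Its medians were -0.19 on genistein and -0.04 on the control diet, with 10 and 8 of 16 below 0. The shares above 0 were 37.5% and 50%, beside 51.6% and 49.8% of all measured genes. Named after their values were seen, the regulators past 2-fold were Tp53inp1 on genistein (1.16, against 0.81 on the control diet) and Foxo1 on the control diet (1.42, against 0.78 on genistein). Tp53inp1 was near the floor in sham muscle, with 85.7 units on genistein and 73.3 units on the control diet. The second value was raised to the floor of 78.9 units, so the ratio of 0.81 rests on it. Also named after their values were seen, Foxo3, a known activator of autophagy genes in muscle, had ratios of 0.16 and 0.24, and Tfe3, a relative of TFEB, 0.51 and 0.77. On the lower side, chosen likewise, Tp53inp2, which promotes autophagosome formation, had ratios of -0.71 and -0.60, the hypoxia factor Hif1a -0.63 and -0.70, and Depp1 -0.64 and -0.47.

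The diet comparison asks how the same genes stood on genistein against the control diet, in denervated and in sham muscle. In denervated muscle 0 of 28 members reached 2-fold in either direction, beside 1.02% higher and 0.124% lower of 10482 genes, and 0 reached 1.5-fold, beside 6.2% and 1.8%. In sham muscle the member counts were also 0 at both sizes, beside 0.332% and 0.286% of 10837 genes at 2-fold and 2.7% and 2.5% at 1.5-fold. These counts rest on the brightest probe set of each gene. Some dimmer probe sets above the floor on all 4 arrays did pass 1.5-fold. In sham muscle their log2 ratios were -0.91 for Atg7, 0.88 for Atg12, 0.61 for Atg5 and 0.59 for Sqstm1. In denervated muscle a dimmer Gaa probe set gave -0.82. The median log2 ratio of the members was -0.01 in denervated and 0.02 in sham muscle. Within the probe set scatter SD of 0.25 lay 20 of 28 members (71.4%) in denervated muscle, beside 65.9% of all genes, and within that of 0.27 lay 28 of 28 in sham muscle, beside 73.1%.

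On the brightest probe sets, the highest diet ratio in denervated muscle was that of Ctsa (0.49, with 2358 units on genistein and 1683 units on the control diet). Wipi1 stood at 0.43, with 3076 units on genistein and 2284 units on the control diet, and Atg7 at 0.31. The lowest was Ulk1 at -0.44, with 876 units on genistein and 1186 units on the control diet, followed by Pink1 at -0.39 and Tfeb at -0.30. Second probe sets gave diet ratios of smaller size. They were -0.08 for Wipi1, opposite in sign to its brightest probe set, and -0.01 for Ulk1. The other Atg7 probe set above the floor on all arrays gave 0.09. Under median scaling the median of all genes in this comparison was itself -0.13.

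**Figure D4:**
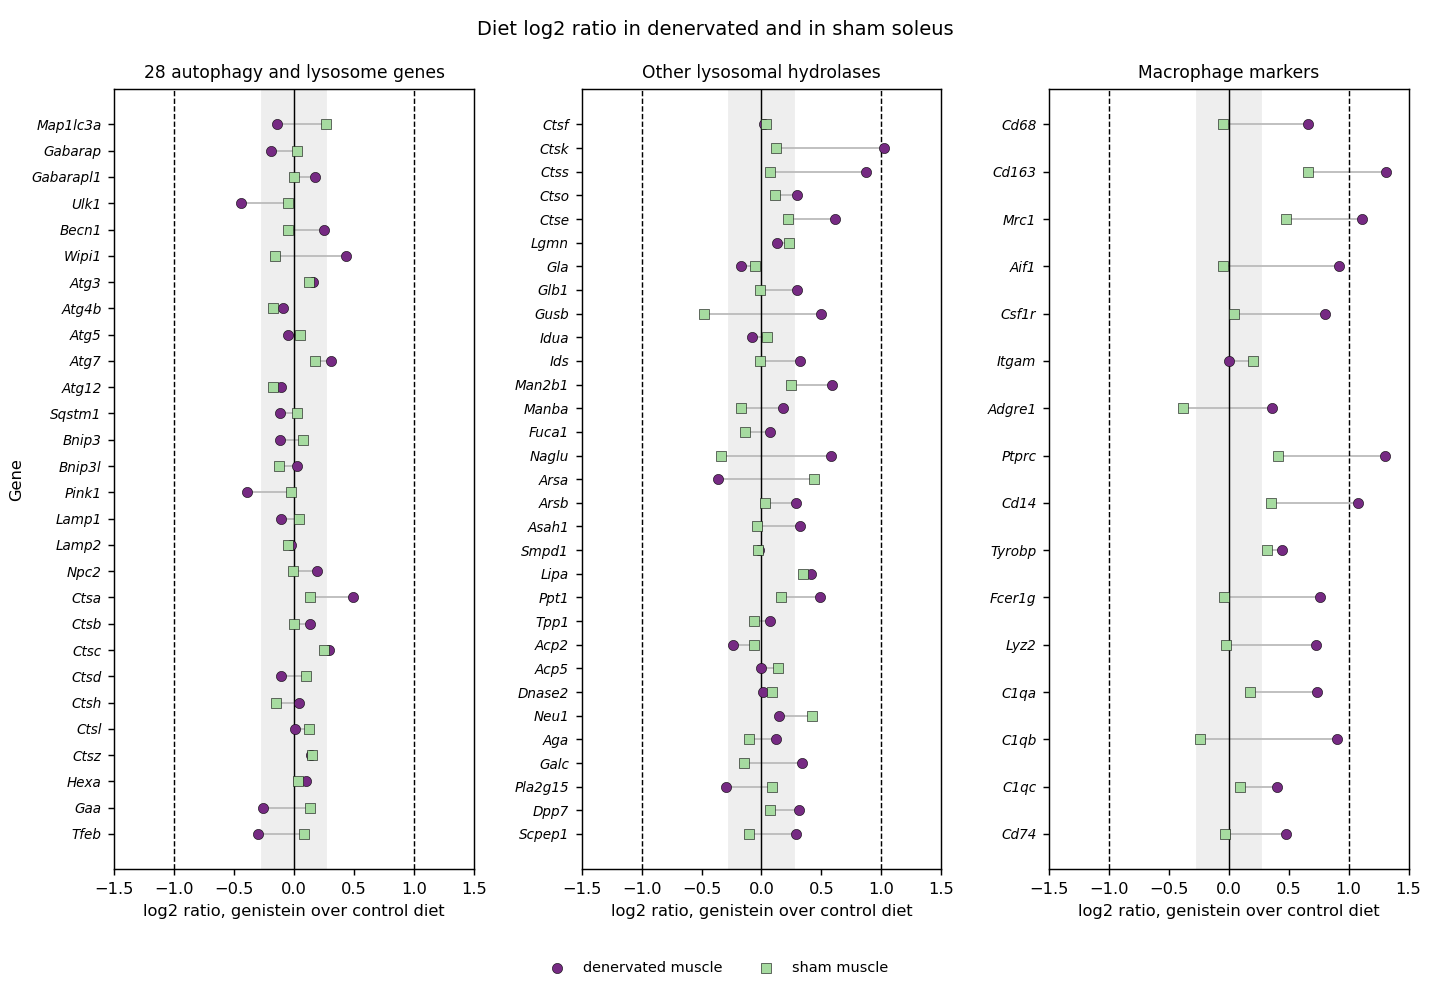
log2 ratio of genistein over control diet in denervated (circles) and sham (squares) muscle for the 28 members, the other lysosomal hydrolases and macrophage markers, with dashed lines at 2-fold and the scatter SD shaded. On their brightest probe sets, members stay between -0.44 and 0.49, whereas all 15 measured macrophage markers in denervated muscle lie above 0.

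Of 30 measured lysosomal hydrolases outside the members, 24 (80%) read above 0 on genistein over control diet in denervated muscle, beside 50% of all genes, with a median of 0.29 that compares with 0.04 in sham muscle. At least 1.5-fold higher were 4 (13.3%), beside 6.2% of all genes, and 1 was past 2-fold, beside 1.02%. Within the scatter SD lay 12 (40%), beside 65.9% of all genes. Ctsk, the collagen-degrading cathepsin K, read 496 units on genistein and 245 units on the control diet in denervated muscle, and 389 and 359 units in sham muscle. Its denervated control diet pool was the low one of the 4. Ctss, a cathepsin of antigen-presenting cells named after its value was seen, likewise read 912.5 and 499 units on genistein and the control diet in denervated muscle and 874 and 833 units in sham muscle.

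Macrophage markers had a median diet ratio of 0.76 in denervated muscle, with 15 of 15 measured genes above 0 (50% of all genes), and 0.07 in sham muscle. Their summed signal over 16 genes was 15154 units in denervated and 14386 units in sham muscle on genistein, and 9446 and 13938 units on the control diet, so the control diet denervated pool was lowest. No macrophage marker was below the floor on all 4 arrays, and Itgam was above it on 1. Muscle fibre markers summed to 133100 and 206631 units in denervated and sham muscle on genistein and 160133 and 233054 units on the control diet. Fibroblast markers summed to 42166 and 58629 units in denervated and sham muscle on genistein and 24950 and 57911 units on the control diet, and their diet ratios in denervated muscle were above 0 in 9 of 9 genes, with a median of 0.72. Adipocyte markers were above 0 in 3 of 3 measured genes there, with a median of 1.08, while Lep was below the floor on all arrays. Endothelial markers were less uniform there, with 4 of 5 genes (80%) above 0, a median of 0.46 and a lowest ratio of -0.09. For each of these lists the share of all measured genes above 0 was 50%. The part of these cells in the hydrolase and member values was not tested.

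The denervation effect differed between diets by a median of 0.03 log2 units over the members (genistein minus control diet), with 15 above 0 and 13 below. The differences ran from -0.41 for Map1lc3a to 0.59 for Wipi1. The same difference between probe sets of 1 gene had an SD of 0.34, which 7 of 28 members (25%) exceeded, beside 32% of 10409 measured genes. Wipi1, Map1lc3a, Gaa (-0.39), Ulk1 (-0.38), Tfeb (-0.38), Pink1 (-0.36) and Ctsa (0.36) were those 7, and none was tested. These values are from the brightest probe sets. On second probe sets the denervation ratios on genistein and the control diet were -0.49 and -0.56 for Wipi1 and 0.24 and 0.31 for Ulk1. Those of each gene thus lay close together, while the dimmer Gaa probe set gave -0.33 and 0.00.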

How the data were processed

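RNA pooled from 8 rats per group was put on 1 Affymetrix rat array each, 4 arrays in all. The values are linear intensities per probe set, as deposited by the authors, and GCOS 1.1 is named in the submitters' processing notes. No scaling target, detection call or genome build was given in the labels. With 2% of probe sets trimmed from each end, every array averaged 500.2 units, so the authors' scaling was kept.

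Of 31042 probe sets that were not array controls, 20826 had 1 gene symbol, 436 had several and 9780 had none listed. Gene identifiers were matched to GRCr8, and 0 symbols were updated. The probe set brightest on average (log2 scale) stood for its gene. Signals below the 40th percentile (78.9 units) were raised to it, and genes with both arrays of a comparison below it were left out of that comparison. Genes were counted at 2-fold and 1.5-fold. With 1 array per group there was no test, and the number of arrays limits precision. The functions were tested on simulated data. Python 3.11.15, pandas 2.3.3 and numpy 2.4.6 were used.

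All members were described. From other lists, genes past 2-fold in both denervation comparisons or in a diet comparison were named, and exceptions are stated where they occur. The members and lists were chosen with earlier results of these data known. Other scalings, floors and probe set summaries were tried as alternatives.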

Additional observations from a re-analysis of the deposited data

Results flagged for a closer look

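In 7 of 28 members the denervation log2 ratio had opposite signs on the 2 diets, beside 20.7% of all measured genes (25% of members), and in none was the difference tested. Between genistein and the control diet the ratios differed by -0.38 for Tfeb (-0.31 on genistein and 0.08 on the control diet) and by 0.36 for Ctsa (0.29 and -0.06), both beyond the probe set SD of 0.34. The other five lay within that SD. Their differences were -0.20 for Gabarap, -0.10 for Atg5, 0.20 for Npc2, -0.21 for Ctsd and 0.07 for Hexa. The signs depended on the scaling. Under scaling to the hybridisation controls 0 of the 7 had opposite signs, under median scaling 5 did (not Ctsa or Hexa), under quantile normalization 4 (not Gabarap, Hexa or Tfeb) and with the mean of probe sets 6 (not Gabarap).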

How the results depend on the processing

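All 28 members were recomputed under 7 alternatives. No paired analysis was possible because each group is 1 pooled array. Scaling to the hybridisation controls put the median of all genes at 0.48 for denervation on genistein and 0.37 on the control diet. Under that scaling 5 and 5 members were at least 2-fold higher (17.9% each, beside 16.1% and 12.6% of all genes). At least 1.5-fold higher were 13 and 10 (46.4% and 35.7%, beside 42% and 34.8%). On genistein 0 members were at least 2-fold lower, beside 2.47% of all genes. On the control diet 1 was at least 1.5-fold lower (3.57%, beside 8.46%). The members' medians were 0.53 and 0.46. Quantile normalization left 1 member at least 2-fold lower on genistein (3.57%, beside 6.55% of all genes). It left 1 at least 1.5-fold lower on the control diet (3.57%, beside 17.2%). The mean of probe sets left 1 at least 2-fold lower on genistein (3.57%, beside 5.59%). The members' median diet ratio in denervated muscle, -0.01 as deposited, was 0.05 under quantile normalization, 0.06 under scaling to the hybridisation controls and 0.09 with the mean of probe sets. The median difference between the diets' denervation ratios, 0.03, became -0.08 under median scaling and -0.05 with the mean of probe sets. Floors at the 20th and 60th percentile, and log2(signal + 50) without a floor, moved no count by over 1.5 times. Wipi1 on genistein was -0.81 under scaling to the hybridisation controls and -0.89 with the mean of probe sets, and Bnip3 was -0.68 and, under quantile normalization, -0.70. Values were taken as unmoved within 1 SD of the probe set scatter, since with 1 array per group the scatter between pools is not known.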
